A study of Mus musculus with 4 samples.

Results

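The cytosolic ribosomal protein genes encode the proteins that, with the ribosomal RNAs, make up the large (Rpl and Rplp) and small (Rps) subunits of the ribosome outside mitochondria. They are short, highly expressed genes whose promoters are usually rich in CpG and free of DNA methylation, many carry small nucleolar RNA (snoRNA) genes in their introns, and most have left processed pseudogenes elsewhere in the genome. They were chosen by symbol alone, as protein-coding genes on chromosomes 1 to 19 whose RefSeq symbol is Rpl or Rps followed by a number, or Rplp0, Rplp1, Rplp2 or Rpsa, without Rps6k genes, pseudogenes and Rpl10l. This gave 84 of 20665 protein-coding genes of these chromosomes. By their names 73 are core proteins, 7 are paralogs (Rpl3l, Rpl7l1, Rpl22l1, Rpl32l, Rpl36al, Rpl39l and Rps27l), 3 are retrotransposed copies (Rpl37rt, Rps23rg1 and Rps27rt) and 1, Rps19bp1, encodes a protein that binds Rps19 and is named after it.

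DNA methylation was compared between satellite cells, the stem cells of skeletal muscle, of mice given tamoxifen and of mice given oil. Tamoxifen switched on Cre recombinase to delete Uhrf1, whose protein guides the maintenance methyltransferase Dnmt1 to newly copied DNA. Both groups were 9 weeks old, the cells came from hindlimb muscle and were cultured for 3 days, and tamoxifen was injected on 5 consecutive days. The methylated and the non-methylated fraction, separated with an MBD2 protein that binds methylated CpG, gave 1 library each per treatment, 4 in all. The Cre driver, and how many mice went into a library, are not stated in the labels.

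What could be analysed is 1 list of 39231 regions in which the authors' peak caller found more tags (mapped reads) for oil than for tamoxifen, that is, fewer after tamoxifen. It was read here as a comparison of the methylated fractions, since the file header does not name the fraction. The tamoxifen library held 25614791 tags and the oil library 19534328 after duplicates were removed. Before that they held 36519772 and 35216008, with redundant rates of 0.3 for tamoxifen and 0.45 for oil. The difference in size thus arose mostly at the removal of duplicates. With 1 library per treatment there was no replicate and no test, and loss of Uhrf1, tamoxifen itself, differences between animals, culture and capture cannot be told apart as sources of a difference. For a gene with no listed region, the list does not say whether it lacked methylation, did not change, had more tags after tamoxifen or had too few to be called. Tags also count DNA copies, and DNA capture measures no RNA, so neither the cell type nor the level of any gene could be checked against markers. The targeted gene Uhrf1 held 4 regions, at which the tamoxifen library kept 8.17% to 21.6% of the oil signal, but the labels do not state which stretch was deleted, so these values do not check them.

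Of the 84 ribosomal protein genes, 24 (28.6%, exact 95% limits 19.2% to 39.5%) held a listed region over the gene or the 2000 bp on either side, against 47.1% of all protein-coding genes of these chromosomes. They held 28 regions between them. Each of these regions was lower in the tamoxifen library because only such regions are listed. All had to pass the same limit on q, so the depth of loss can be compared among listed regions only. Over the summits of these regions the tamoxifen signal, scaled to the size of the oil library, had a median of 20.3% of the oil signal (kept signal, from here on), against 20.1% for all listed regions. The median region had 12 tamoxifen tags and 44.5 oil tags, against 14 tamoxifen tags and 51 oil tags over the whole list. Exact limits here and below cover counting error only. Those on shares of genes treat genes as independent, and those on signal treat tags as independent. The summit is where the oil library was highest, so the kept signal is biased low by that choice. The kept signal is also relative to library size after duplicates were removed, and is not the share of methylation left.

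The promoters shown here are those nearest to a listed region, since 64 of the 84 genes have a start in the RefSeq promoter table of GRCm38.p6 and 6 of these have a region within 1000 bp of it. Each line gives the 250 bases before the start, 5′ to 3′ on the gene's strand, with every CpG, the site MBD2 binds when methylated, in capitals. The line for Rps27 is the promoter of the parent gene of Rps27rt, which holds no region.
Rps27rt, chr9:114982740-114982989, minus strand: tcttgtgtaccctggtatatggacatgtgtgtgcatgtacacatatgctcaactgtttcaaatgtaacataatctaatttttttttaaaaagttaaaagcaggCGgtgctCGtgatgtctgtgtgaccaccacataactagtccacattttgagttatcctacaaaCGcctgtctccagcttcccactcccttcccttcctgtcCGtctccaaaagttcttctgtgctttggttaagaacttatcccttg
Rps27, chr3:90213649-90213898, minus strand: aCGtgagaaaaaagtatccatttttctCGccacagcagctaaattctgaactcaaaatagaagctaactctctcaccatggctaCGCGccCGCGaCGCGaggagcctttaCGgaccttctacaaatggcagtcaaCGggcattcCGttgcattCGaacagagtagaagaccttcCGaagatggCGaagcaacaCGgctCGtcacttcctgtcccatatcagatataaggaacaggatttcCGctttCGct
Rpl24, chr16:55966025-55966274, plus strand: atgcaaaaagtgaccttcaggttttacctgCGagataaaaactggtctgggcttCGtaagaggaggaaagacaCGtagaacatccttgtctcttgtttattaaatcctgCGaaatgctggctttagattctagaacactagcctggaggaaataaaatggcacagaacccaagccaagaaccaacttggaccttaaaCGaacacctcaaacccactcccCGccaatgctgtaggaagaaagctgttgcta
Rplp0, chr5:115559217-115559466, plus strand: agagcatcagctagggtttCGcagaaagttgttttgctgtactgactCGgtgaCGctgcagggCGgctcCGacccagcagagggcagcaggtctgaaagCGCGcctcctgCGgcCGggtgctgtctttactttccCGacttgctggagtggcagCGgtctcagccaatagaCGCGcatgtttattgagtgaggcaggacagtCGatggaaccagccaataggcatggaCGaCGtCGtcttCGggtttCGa
Rpl37rt, chr5:115110269-115110518, minus strand: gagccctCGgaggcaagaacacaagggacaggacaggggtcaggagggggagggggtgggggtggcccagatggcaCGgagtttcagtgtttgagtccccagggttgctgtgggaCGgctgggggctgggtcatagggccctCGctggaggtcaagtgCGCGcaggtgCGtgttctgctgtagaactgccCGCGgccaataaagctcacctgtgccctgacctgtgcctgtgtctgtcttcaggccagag
Rpl26, chr11:68901316-68901565, plus strand: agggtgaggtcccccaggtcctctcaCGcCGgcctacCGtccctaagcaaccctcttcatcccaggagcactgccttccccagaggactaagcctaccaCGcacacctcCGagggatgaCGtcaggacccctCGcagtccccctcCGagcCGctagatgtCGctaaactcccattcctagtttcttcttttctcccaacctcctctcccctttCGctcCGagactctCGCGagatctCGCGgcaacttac
Rpl38, chr11:114668330-114668579, plus strand: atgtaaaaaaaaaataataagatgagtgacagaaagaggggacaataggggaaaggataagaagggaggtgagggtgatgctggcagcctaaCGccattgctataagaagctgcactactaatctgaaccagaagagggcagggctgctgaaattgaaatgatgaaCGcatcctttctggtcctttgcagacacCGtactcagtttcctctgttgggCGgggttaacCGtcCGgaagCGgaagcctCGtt

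These stretches differ in CpG. The retrotransposed Rps27rt has 4 CpG in its 250 bases, while its parent Rps27 has 18. Rpl24 has 6, Rpl38 has 8, Rpl37rt has 9, Rpl26 has 16 and Rplp0 has 19.

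The gene with the deepest loss was Rpl38. It encodes a large subunit protein whose mutation in mice changes the pattern of the axial skeleton. Its region on chromosome 11, from 114667541 to 114667863, had 4 tamoxifen tags and 70 oil tags. The tamoxifen library kept 4.36% of the oil signal (95% limits 1.16% to 11.7%), and the authors' fold, which is given as oil over tamoxifen throughout, was 17.53. That fold exceeded those of 99.9% of all listed regions. The region ends 717 bp upstream of the start in the promoter table, and its last 46 bp overlap the outermost end of the gene as annotated. The other 27 regions kept 12.04% or more of the oil signal. The nearest other gene, Ttyh2, is 7605 bp away.

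**Figure D1:**
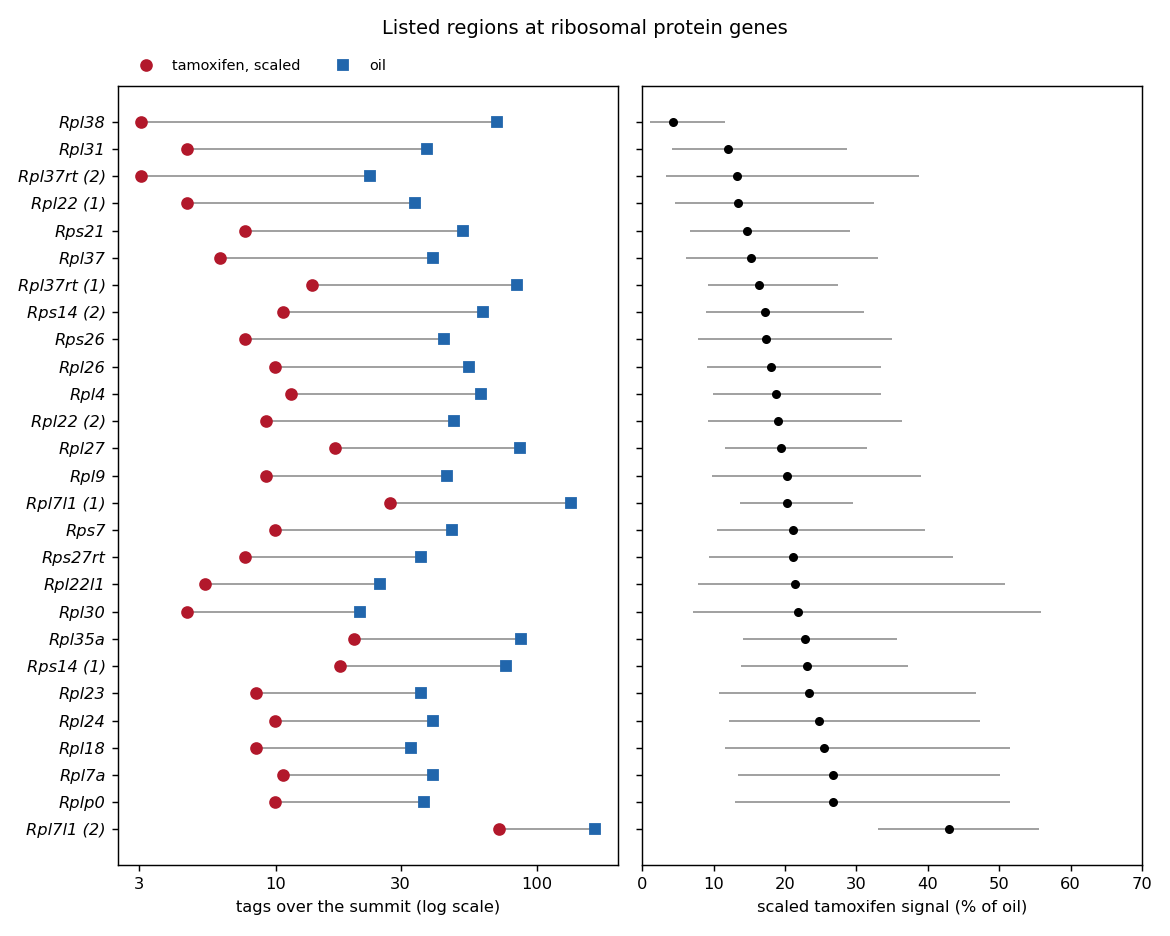
Tags over the summit of each of the 27 regions at ribosomal protein genes with 20 or more oil tags, in the tamoxifen library, scaled to the oil library, and in the oil library (left, log scale), and the scaled tamoxifen signal in % of oil with exact 95% limits (right). Numbers in brackets tell apart regions of a gene with 2; Rpl38 kept 4.36% and the upstream region of Rpl7l1 42.9%, with all others between 12.04% and 26.8%.

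A further 3 core genes held a region close to their start. Rplp0, which encodes the base of the stalk that recruits translation factors to the large subunit, had a region on chromosome 5 from 115558722 to 115559046, ending 421 bp upstream of the start. It had 13 tamoxifen tags and 37 oil tags, so that 26.8% of the oil signal was kept (limits 13.1% to 51.6%, fold 3.48). The other stalk genes, Rplp1 and Rplp2, held none. Rpl24, a large subunit gene mutated in the Belly spot and tail mouse, had a region on chromosome 16 from 55965595 to 55965944, which ends 331 bp upstream of the start. It had 13 tamoxifen tags and 40 oil tags, and 24.8% of the signal was kept (limits 12.2% to 47.3%, fold 3.76). Rpl26, which lies at the peptide exit tunnel, had a region on chromosome 11 from 68900632 to 68900884, ending 682 bp upstream, with 13 tamoxifen tags and 55 oil tags (18.0% kept, limits 9.03% to 33.4%, fold 5.13). All of these regions lie upstream of the promoter sequences printed above and share no base with them.

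A region reached the promoter window itself in 1 gene, the retrotransposed Rps27rt. Its region on chromosome 9, from 114982302 to 114982797, spans the whole 374-bp gene and the 58 bp before its start. It had 10 tamoxifen tags and 36 oil tags, with 21.2% of the signal kept (limits 9.38% to 43.6%, fold 4.29). These tags were counted at the summit, 399 bp from the start, past the far end of the gene and outside the promoter window. The gene lies inside Osbpl10, so the region is also one of that gene. Rpl37rt, the other retrotransposed copy with a region, had 1 at its far end and 1 upstream. The region at the far end, on chromosome 5 from 115103050 to 115103639, had 18 tamoxifen tags and 84 oil tags (16.3% kept, limits 9.24% to 27.4%, fold 5.77). The upstream stretch, from 115110797 to 115111006, had 4 tamoxifen tags and 23 oil tags (13.3% kept, limits 3.33% to 38.8%, fold 5.93) and lies in the neighbouring gene Acads. Rps23rg1 held none. Such copies resemble their parent genes closely, and the file header does not say how tags matching several places were assigned, so the part of such tags in these values was not tested.

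The paralogs behaved unevenly. Rpl22l1, a paralog of Rpl22, had a region within the gene on chromosome 3 from 28807146 to 28807357, with 7 tamoxifen tags and 25 oil tags (21.4% kept, limits 7.80% to 50.8%, fold 4.10). Rpl22 itself held 2 regions inside the gene. The stronger, on chromosome 4 from 152329998 to 152330449, had 6 tamoxifen tags and 34 oil tags (13.5% kept, limits 4.62% to 32.4%, fold 6.28), and the other had 12 tamoxifen tags and 48 oil tags (19.1% kept). Rpl7l1, named as a paralog of Rpl7, held the best covered regions of the whole group. That inside the gene, on chromosome 17 from 46780106 to 46780580, had 36 tamoxifen tags and 135 oil tags (20.3% kept, limits 13.7% to 29.6%, fold 4.78). That upstream of it, from 46784495 to 46784932, had 94 tamoxifen tags and 167 oil tags, and 42.9% of the signal was kept (limits 33.0% to 55.6%). This was the shallowest loss of the 28, with a fold of 2.31 that exceeded only 2.04% of all listed regions, and its limits lie wholly above those of Rpl38. Rpl7, and Rpl3l, the paralog of Rpl3 used in skeletal muscle and heart, held no region, nor did Rpl3, Rpl32l, Rpl36al, Rpl39l, Rps27l or Rps19bp1.

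Several other large subunit core genes held regions inside the body or past the far end, and 2 more, Rpl7a and Rpl18, held them upstream. Rpl31 had the second deepest loss, on chromosome 1 from 39370961 to 39371210, with 6 tamoxifen tags and 38 oil tags (12.04% kept, limits 4.16% to 28.7%, fold 6.99). The region is inside Rpl31 but only 285 bp from Tbc1d8. Rpl4 had a region near its far end on chromosome 9, from 64177797 to 64178162, with 15 tamoxifen tags and 61 oil tags (18.8% kept, limits 9.90% to 33.4%, fold 4.98). Rpl9 had one on chromosome 5 from 65389406 to 65389625, with 12 tamoxifen tags and 45 oil tags (20.3% kept, limits 9.79% to 39.1%, fold 4.53). Past the end of Rpl27, on chromosome 11 from 101446845 to 101447178, 22 tamoxifen tags stood against 86 oil tags (19.5% kept, limits 11.6% to 31.5%, fold 4.89). Past the end of Rpl37, on chromosome 15 from 5120501 to 5120716, 8 tamoxifen tags stood against 40 oil tags (15.3% kept, limits 6.17% to 33.0%, fold 5.77), and the gene Gm10250 covers that stretch.

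Upstream of Rpl7a, on chromosome 2 from 26908984 to 26909184, there were 14 tamoxifen tags and 40 oil tags (26.7% kept, limits 13.4% to 50.1%, fold 3.51), within the neighbouring gene Med22. The regions of Rpl18 and Rpl23 also lie in a neighbour, Sphk2 and 1700001P01Rik, and that of Rpl35a is 323 bp from Lmln. At these 3 genes and Rpl30, between 6 and 26 tamoxifen tags stood against 21 to 87 oil tags, and 21.8% to 25.4% of the signal was kept. The limits of all the large subunit core regions other than that of Rpl38 overlap each other.

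Small subunit core genes with a region include Rps7, Rps14, Rps21 and Rps26. Rps21 had a region 1428 bp upstream of its start, on chromosome 2 from 180255718 to 180255951, with 10 tamoxifen tags and 52 oil tags (14.7% kept, limits 6.65% to 29.2%, fold 6.14). Rps26, which sits by the channel through which the mRNA leaves, had a region at its far end, on chromosome 10 from 128624556 to 128624756, with 10 tamoxifen tags and 44 oil tags (17.3% kept, limits 7.78% to 35.0%, fold 5.22). Rps14, whose loss on 1 chromosome causes the anaemia of the human 5q- syndrome, had a region on each side of the gene. The nearer, 68 bp from the annotated body on chromosome 18 from 60778614 to 60778875, had 14 tamoxifen tags and 62 oil tags (17.2% kept, limits 8.90% to 31.1%, fold 5.40). The other had 23 tamoxifen tags and 76 oil tags (23.1% kept). Rps7 had 13 tamoxifen tags and 47 oil tags inside the gene (21.1% kept).

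By subunit, 15 of 43 core large subunit genes (34.9%, limits 21.0% to 50.9%) and 5 of 30 core small subunit genes (16.7%, limits 5.64% to 34.7%) held a region. The limits overlap, and the difference was not tested. The large subunit core genes without a region include Rpl3, Rpl5, Rpl6, Rpl7, Rpl8, Rpl10a, Rpl11, Rpl12, Rpl13, Rpl13a, Rpl14, Rpl15, Rpl17, Rpl19, Rpl21, Rpl23a, Rpl27a, Rpl28, Rpl29, Rpl32, Rpl34, Rpl35, Rpl36, Rpl37a, Rpl41, Rplp1 and Rplp2. The small subunit core genes without a region include Rps2, Rps3, Rps3a1, Rps6, Rps9, Rps10, Rps12, Rps13, Rps15, Rps15a, Rps16, Rps18, Rps19, Rps20, Rps23, Rps24, Rps25, Rps27, Rps27a, Rps28, Rps29 and Rpsa. Among them are Rps6, the target of the S6 kinases, and Rpl5 and Rpl11, which bind Mdm2 together with 5S RNA and so stabilise p53. Just outside the 2000 bp, Rpl32l had a region 2027 bp away (33 tamoxifen tags, 105 oil tags) and Rps27 had one 2040 bp away (10 tamoxifen tags, 42 oil tags), while the outermost region counted, that of Rpl18, was 1950 bp away. With a limit of 1e-10 on the authors' q value, 17 of the 84 genes held a region, against 43.2% of all protein-coding genes.

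Ribosomal protein genes are short, with a median length of 3250 bp against 17491 bp for all protein-coding genes, and longer genes hold regions more often. Of the 75 that fall in the shortest quartile class of all genes (up to 5927 bp), 21 (28.0%, limits 18.2% to 39.6%) held a region, against 15.4% of all genes in that class, which lies below those limits. Of the 9 in the next class (up to 17491 bp), 3 (33.3%) did, against 37.9% of all genes there. In the finer classes of length the shares of ribosomal protein genes were 16.7%, 27.7%, 38.9% and 33.3% in the 4 shortest deciles, against 6.33%, 20.3%, 24.9% and 37.0% of all genes, and in these smaller classes the limits of the ribosomal protein genes' shares contained the share of all genes. Weighting all genes to the lengths of the ribosomal protein genes gave 17.8% with quartile classes and 20.8% with deciles, which would be 14.98 or 17.5 of 84 genes. The limits on the 28.6% of ribosomal protein genes, 19.2% to 39.5%, leave out the value with quartile classes and contain that with deciles, so this comparison depends on how length is divided. All limits on shares here treat genes of 1 library per treatment as independent. They are no test, and no difference from all genes was tested. Deciles match length more closely. The shortest quartile class takes in the shortest decile, where 6.33% of all genes held a region and only 12 of the 84 ribosomal protein genes fall.

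**Figure D2:**
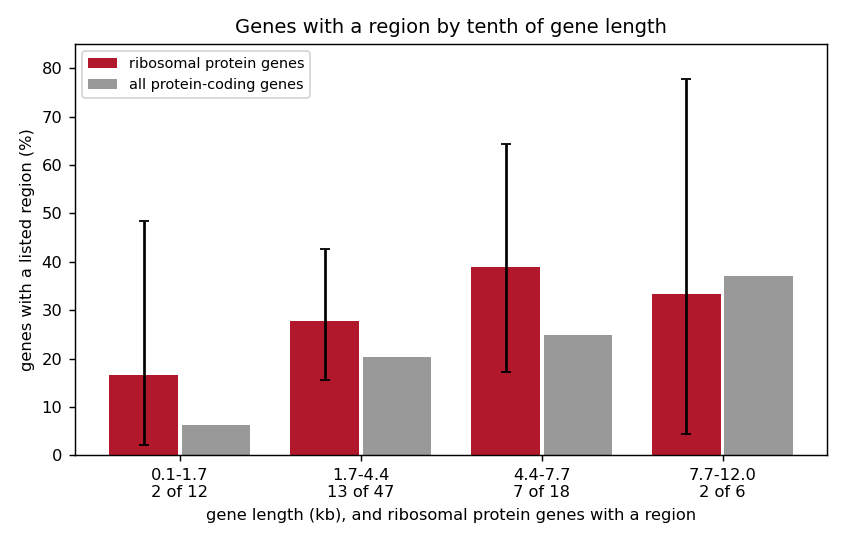
Share of genes with a listed region (%), for ribosomal protein genes and for all protein-coding genes in the 4 shortest deciles of gene length (kb); lines are exact 95% limits on the ribosomal protein genes, and the counts stand under each class. In the class that starts at 1703 bp, 13 of 47 ribosomal protein genes held a region, 27.7% against 20.3% of all genes.

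The flanks carried much of this count. Over the gene body alone, 12 of 84 ribosomal protein genes (14.3%) held a region, against 43.6% of all protein-coding genes, and in the shortest quartile class 9 of 75 did (12%), against 9.54% of all genes of that class. Of the 28 regions, 13 touched the body, 8 lay upstream, 4 lay past the far end and 3, at Rpl30 and Rps14, lay in a flank of a gene with no strand in the table. Another gene covered 6 of the 28, and 5 of those were outside the body. The median signal kept, at the summits, was 19.1% for the regions that touched the body and 22.8% for those that did not. Among the former, the summits of the regions at Rpl38 and Rps27rt lie outside the body. Per 100 kb of gene and flanks there were 4.24 regions at ribosomal protein genes and 2.33 at all protein-coding genes, a set that is dominated by long genes. Neighbouring genes and their distance therefore belong to the reading of each flank region above.

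Of the 64 genes with a start in the table, 3 (Rps27rt, Rpl24 and Rplp0) had a region within 500 bp of it (4.69%, limits 0.977% to 13.1%), against 1.96% of the 16457 protein-coding genes with a start. The share was thus the higher one for ribosomal protein genes, but it rests on 3 genes, and its limits contain the share of all genes. The other 61 had none there. The 20 genes with no entry in the table include Rpl3, Rpl7, Rpl8, Rpl17, Rpl21, Rpl23a, Rpl29, Rpl30, Rpl32, Rpl36, Rplp1, Rps14, Rps20, Rps27a and Rps29.

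**Figure D3:**
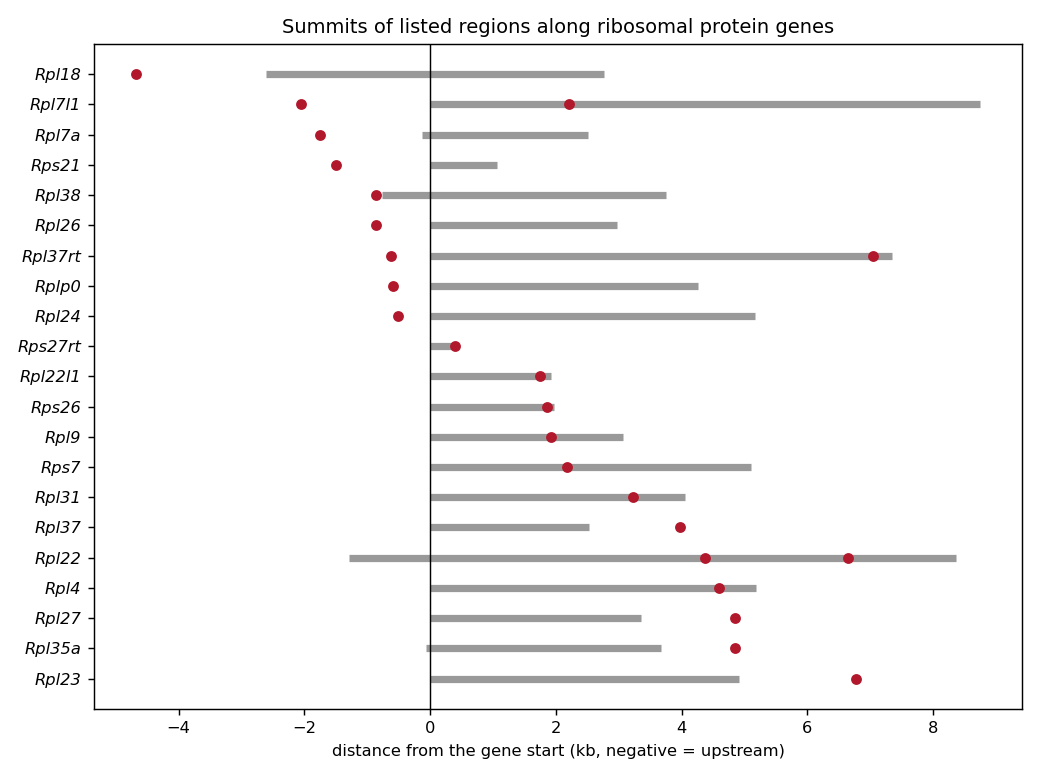
Summits of the 24 regions at genes with a known start (points), as the distance from the start in kb along the strand of the gene, with the annotated gene body as a grey bar and the start as the vertical line. The only summit within 500 bp of a start is that of Rps27rt at 399 bp; Rpl24 follows at -507 bp, that is, upstream.

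The promoter windows of these genes, 250 bases before to 50 after the start, were rich in CpG. The median was 22 CpG (quartiles 16 and 27) over 64 genes, against 15 (quartiles 4 and 26) over all protein-coding genes. Where a gene has several starts, its highest value was taken. The observed over expected CpG ratio had a median of 0.87 against 0.63. Ribosomal protein genes with a region had a median of 21 CpG and those without had 23. Among all protein-coding genes with a window, the 7714 with a region had a median of 21 and the 8743 without had 7. These values were not matched for gene length, and no difference was tested. The lowest counts were those of Rpl3l and Rpl32l with 3 and of Rps23rg1 with 4, while Rpl36al had the most, 42. The motif CCGGAAG, the core of the site of ETS factors, which contains a CpG, was found on either strand in 25 of 64 windows (39.1%) against 13.3% of all genes. Rpl26, Rpl31, Rpl37, Rpl38, Rps7, Rps21 and Rps26 are the genes with a region that hold it. The motif AAGATGGC, part of the YY1 site, was found in 6 windows (9.38%, against 3.59%), and TATAAA in 6 (9.38%, against 15.01%). CCGGAAG ends and AAGATGGC begins with AAG, so a match of each can overlap, and a match says nothing of binding.

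**Figure D4:**
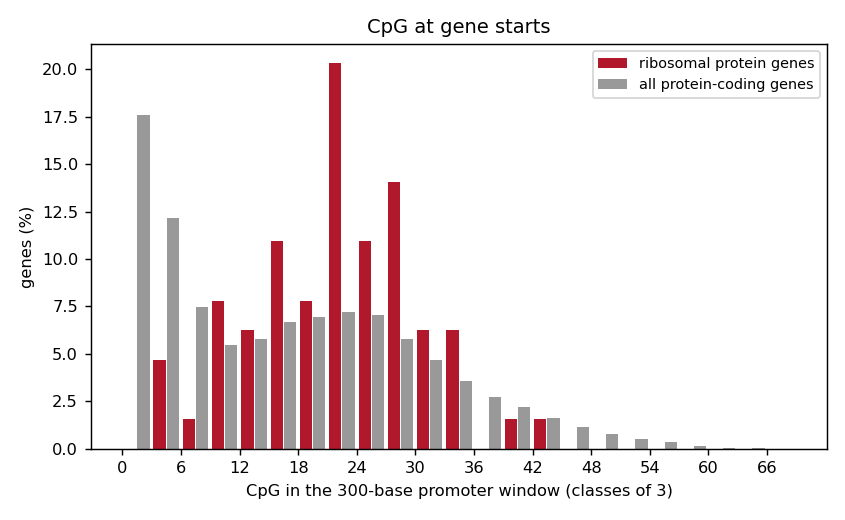
Number of CpG in the 300-base promoter window, in classes of 3 CpG, as % of the 64 ribosomal protein genes and of all protein-coding genes with a window. The ribosomal protein genes centre on 22 CpG, while all genes also form a class with few.

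Other features of the genes were set beside the regions. In 28 of the 84 genes the body holds snoRNA genes, 57 in all. None of the 28 regions overlapped a snoRNA, but no share over all snoRNA genes was set beside this. It therefore says nothing particular of the genes that host them. Of these host genes 5 (Rpl4, Rpl7a, Rpl23, Rpl30 and Rpl37) held a region (17.9%, limits 6.06% to 36.9%), and of the 56 genes without a snoRNA 19 did (33.9%, limits 21.8% to 47.8%). Over the body alone it was 1 host gene, Rpl4, and 11 of the others. The limits overlap and the difference was not tested. Of 18 genes that are mutated in human Diamond-Blackfan anaemia, 7 (38.9%) held a region, against 28.6% of the 84 ribosomal protein genes. In the decile that holds this list's median length, 20.3% of all protein-coding genes did, and no difference was tested. The 7 are Rpl18, Rpl26, Rpl27, Rpl31, Rpl35a, Rps7 and Rps26, with a median of 19.5% of the signal kept. Rps19, the gene most often mutated in that disease, held none.

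Other genes of ribosome production and translation were counted in the same way. Each list is set beside all protein-coding genes in the decile of length that holds the list's median. This does not match the lengths of the single genes in a list. No difference between lists was tested. Of 78 mitochondrial ribosomal protein genes, which encode the separate ribosome of mitochondria, 39 (50%) held a region at a median length of 7690 bp, against 24.9% of all genes in that decile. That median lies just below the decile's upper end of 7709 bp, and 37.0% of all genes in the next decile held a region. The deepest loss in the mitochondrial list was at Mrps18c, with 5 tamoxifen tags and 53 oil tags. Of 68 ribosome assembly factors, 49 (72.1%, against 44.8%) did, with the deepest loss at Utp20, a part of the small subunit processome (2 or fewer tamoxifen tags, 46 oil tags). Of 15 genes of RNA polymerase I transcription, which makes ribosomal RNA, 11 did (73.3%, against 50.6%), led by Taf1a (3 tamoxifen tags, 32 oil tags). Of genes listed under initiation, 27 of 44 held a region (61.4%, against 44.8%), led by Eif1b (4 tamoxifen tags, 44 oil tags). Of genes listed under elongation and release, 5 of 13 did (38.5%, against 44.8%), led by Eef1e1 (8 tamoxifen tags, 80 oil tags). These 5 are Abce1, Eef1d, Eef1e1, Eef2k and Gspt1, and not all of them are elongation or release factors themselves.

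Of 8 genes listed as S6 kinases, 7 (87.5%) held a region, led by Rps6ka2 (3 tamoxifen tags, 30 oil tags). The 7 are Rps6ka1, Rps6ka2, Rps6ka4, Rps6ka5, Rps6kb2, Rps6kc1 and Rps6kl1, and Rps6kb1 is not among them. They share the Rps6k symbol, which alone does not place a gene upstream of ribosomal protein synthesis. Regions were also held by 9 of 11 genes (81.8%) of mTORC1 and the Larp proteins, led by Larp1, which binds ribosomal protein mRNAs (2 or fewer tamoxifen tags, 27 oil tags). Both lists hold long genes, with medians of 43262 bp for the S6 kinases and 50180 bp for mTORC1 and Larp, and 65.1% of all genes in that decile held a region. Of 9 genes of the 5S particle and p53 control, 5 did (55.6%, against 37.0%), led by the p53 ligase gene Mdm2 (8 tamoxifen tags, 65 oil tags), though its ribosomal members Rpl5 and Rpl11 held none. Fau and Rack1, which encode ribosomal proteins under other names, held none either. The regions of these lists kept a median of 16.6% to 20.6% of the oil signal.

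**Figure D5:**
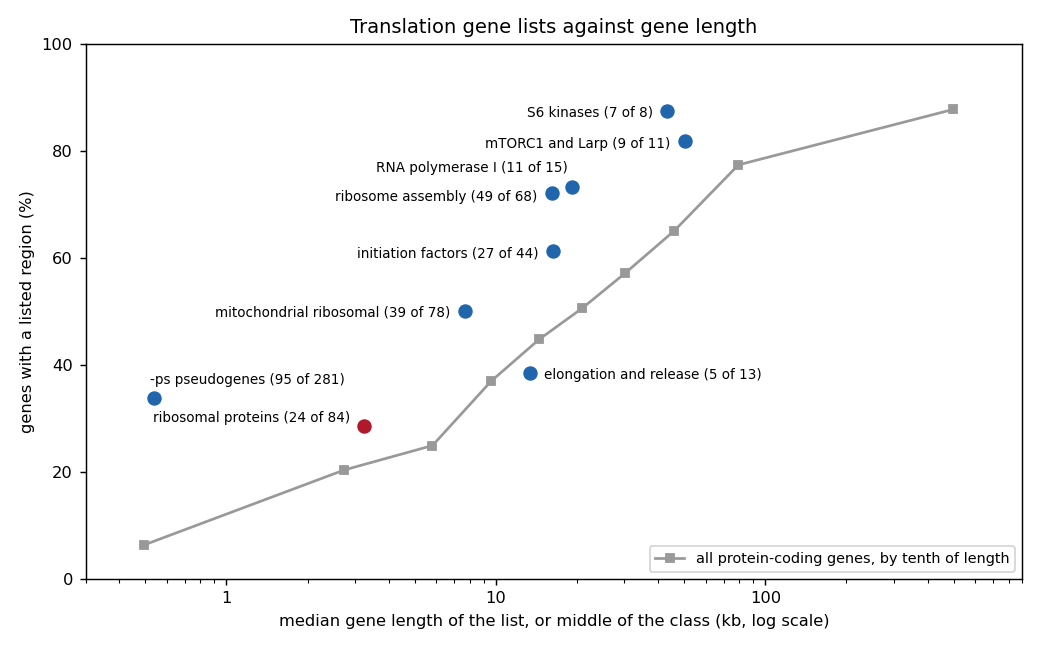
Share of genes with a listed region (%) against the median gene length (kb, log scale) for ribosomal protein genes (red) and related lists (blue), with all protein-coding genes by decile of length (grey squares, at the geometric middle of each class). Ribosomal protein genes stand at 28.6% and 3.25 kb.

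Processed copies of the ribosomal protein genes were counted in the same way. Of 281 pseudogenes with -ps symbols, 95 (33.8%) held a region in the gene or its 2000 bp flanks at a median length of 539 bp, with a median of 23.0% of the oil signal kept. The deepest loss among them was at Rpl19-ps2, with 2 or fewer tamoxifen tags and 61 oil tags. Of all protein-coding genes in the decile that holds this median length, 6.33% held a region, though these are genes of another type. No share of all pseudogenes was set beside this, and the difference from the parent genes was not tested. As for the retrotransposed copies, the part of tags matching several places in these values was not tested.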

How the data were processed

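The authors' deposited list gives regions called with MACS2 2.2.6, per the file headers, with the oil alignment as treatment and the tamoxifen alignment as control. Tags of 130 bp were extended to 201 bp, 1 tag per position and strand was kept, tamoxifen tags were multiplied by 0.763 to match the smaller oil library, the local background windows were switched off, and regions had to pass a q value of 1e-04. Trim Galore, HISAT2 and mm10 are named in the submitters' processing notes, with no version for the first tools. The deposited pileup is a signal value, the oil tags over the summit. The deposited fold is a ratio of oil over scaled tamoxifen tags, each with 1 added; it is the authors' own value. The −log10 p and −log10 q columns had lost their headings and were identified by place, per the file headers and MACS output. The deposited length column is in bp.

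Tamoxifen tags were computed from pileup and fold. They came out whole within 0.02 in 38251 regions (97.5%), including all 28 at ribosomal protein genes. The other 980 regions had 2 or fewer. The −log10 p was recomputed from the pileup and the scaled tamoxifen signal that the fold gives, before rounding to whole tags. It was within 0.000173 of the deposited value in every region. This shows that the deposited columns fit each other, and does not check the rounding or the 980 regions. Limits are exact (Clopper-Pearson, 95%).

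Genes, ends and starts came from RefSeq tables of GRCm38.p6, whose coordinates are those of mm10. A region belonged to a gene if 1 bp or more overlapped. Genes with a region were named, except items that are not reported here, with full values for regions within 2000 bp of the start and the 12 of highest fold. The members and lists were chosen with earlier results of these data known. Tag recovery and overlap counting were tested on simulated data. Python 3.11.15, pandas 2.3.3 and SciPy 1.17.1 were used. No genome sequence was used, so CpG within regions was not counted.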

Additional observations from a re-analysis of the deposited data

How the results depend on the processing

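Of 43 values under other settings, 33 stayed within 1.5 times the count, within the exact limits of a share, or within the limits of the median fold (4.10 to 5.22). The count of ribosomal protein genes with a region, 24, followed the flank, with 12 for no flank and 37 for 5000 bp. The count of regions, 28, was 13 with no flank, 18 with 1000 bp and 52 with 5000 bp. With unscaled tamoxifen tags the median fold of oil over tamoxifen was 3.61 in place of 4.66, and 23 genes then held a region past the authors' limit. Within 1000 bp of the start, in place of 500 bp, 6 genes held a region, not 3. The share of all genes with a region was 45.2% with the sex chromosomes included and 39.4% with lncRNA genes added, in place of 47.1%. Weighted to the lengths of ribosomal protein genes it was 20.8% with deciles of length and 17.8% with quartile classes. A set without the paralogs, the retrotransposed copies and Rps19bp1, chosen after seeing the data, held regions in 20 genes. No replicate could be left out. No paired analysis was possible because each treatment has 1 library per fraction. Depth limits the thin regions, such as that of Rpl30 with 21 oil tags.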
